A study of Homo sapiens with 6 samples.

Results

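Amino acid transporter genes of 6 solute carrier families (SLC1, SLC3, SLC7, SLC36, SLC38 and SLC43) were examined in Panc-1 cells, an established human pancreatic carcinoma cell line. Every gene row whose symbol is one of these family names followed by A and a number was taken, pseudogenes excluded, which gave 38 of the 42495 gene rows with values. For 72 h the cells had received conditioned medium of the cancer-associated fibroblast (CAF) line CAFR1, from a tumor resistant to platinum chemotherapy (CAFR-CM, 3 samples), or of the CAF line CAFS1, from a chemosensitive one (CAFS-CM, 3 samples). The study used this comparison to ask how fibroblasts alter tumor cells that meet their secretions. Each medium came from 1 CAF line and no sample without conditioned medium was analysed here, so a p-value here weighs a difference against the spread of these samples only, which says nothing of the spread among CAF lines. The amino acid content of the media is not among the values used here.

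Amino acids cross the plasma membrane through carriers that couple them to sodium or protons, or that swap one amino acid for another. Several SLC7 carriers, called light chains, reach the cell surface only when bound to a heavy chain from the SLC3 family. SLC7A11 brings in cystine in exchange for glutamate, SLC7A5 brings in leucine and other large neutral amino acids, and SLC1A5 and SLC38 carriers move glutamine. Many of these genes are known targets of ATF4, the transcription factor of the integrated stress response to amino acid shortage and other stresses, which can bind composite C/EBP-ATF elements in DNA.

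Levels were deposited as FPKM (fragments scaled to transcript length and library total), summing to 666560 to 701406 in CAFR-CM libraries and to 660604 to 691568 in CAFS-CM libraries. They are not counts, so the depth of each library is not known. Of 6 epithelial markers, 2 were higher (EPCAM and CDH1) and 2 lower (KRT18 and KRT19), with summed levels of 4958.72 to 5171.62 FPKM after CAFR-CM and 5922.44 to 6162.71 FPKM after CAFS-CM. KRT8 and KRT7 were not called (limma adjusted p = 0.0586 and 0.0584), though all their CAFR-CM values lay below all CAFS-CM values. The count higher was 1 without CAFR-CM replicate 1 or 3 or CAFS-CM replicate 3. The count lower was 1 without CAFS-CM replicate 1 or 2 and 0 without CAFS-CM replicate 3. It was 4 with a pseudocount of 0.1, a mean of at least 1 FPKM, only Entrez rows or median-of-ratios scaling, and 1 with cyclic loess scaling. Of 11 fibroblast markers, 5 passed the filter on low values and 2 were higher (COL1A1 and COL6A1), with summed levels of 68.71 to 75.25 FPKM after CAFR-CM and 50.51 to 55.94 FPKM after CAFS-CM. COL3A1, THY1 and POSTN were tested and not called. FAP was listed at 0 in all 6 libraries, and COL1A2, DCN and PDGFRA had means under 0.1 FPKM in both groups. PDGFRA was at 0.01 to 0.07 FPKM after CAFR-CM and at 0 in every CAFS-CM library. LUM was at 0.07 to 0.16 FPKM after CAFR-CM and 0.02 to 0.04 FPKM after CAFS-CM, without overlap. PDGFRB overlapped, at 0.06 to 0.74 FPKM after CAFR-CM and 0.04 to 0.27 FPKM after CAFS-CM. Of 4 leukocyte and 4 endothelial markers, KDR was higher, a call that held without CAFR-CM replicate 2 and was lost without any other single library. By the same rule, 15.1% of all genes tested were called higher and 11.1% lower. The part of these markers in the results that follow was not tested.

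Of the 38 amino acid transporter genes, 27 passed the filter (above 0.1 FPKM in at least 3 samples). Among those, 13 were higher after CAFR-CM and 1, SLC7A6, was lower at an adjusted p under 0.05 (limma on log2(FPKM + 1), Benjamini-Hochberg over all 23608 genes tested). The background was 15.1% of all genes tested called higher and 11.1% called lower. The higher share was 9.90%, 9.59% and 9.91% without CAFS-CM replicate 1, 2 and 3, when 11, 12 and 11 transporter genes were called higher. The 27 transporter genes had a median log2 fold change of 0.22, and all genes tested one of 0.06. With a log2 fold change above 1 required as well, SLC7A11 and SLC7A10 were higher, beside a background of 1.12% of all genes. In these bulk samples, fewer cells carrying a transcript and less of it per cell cannot be told apart.

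**Figure D1:**
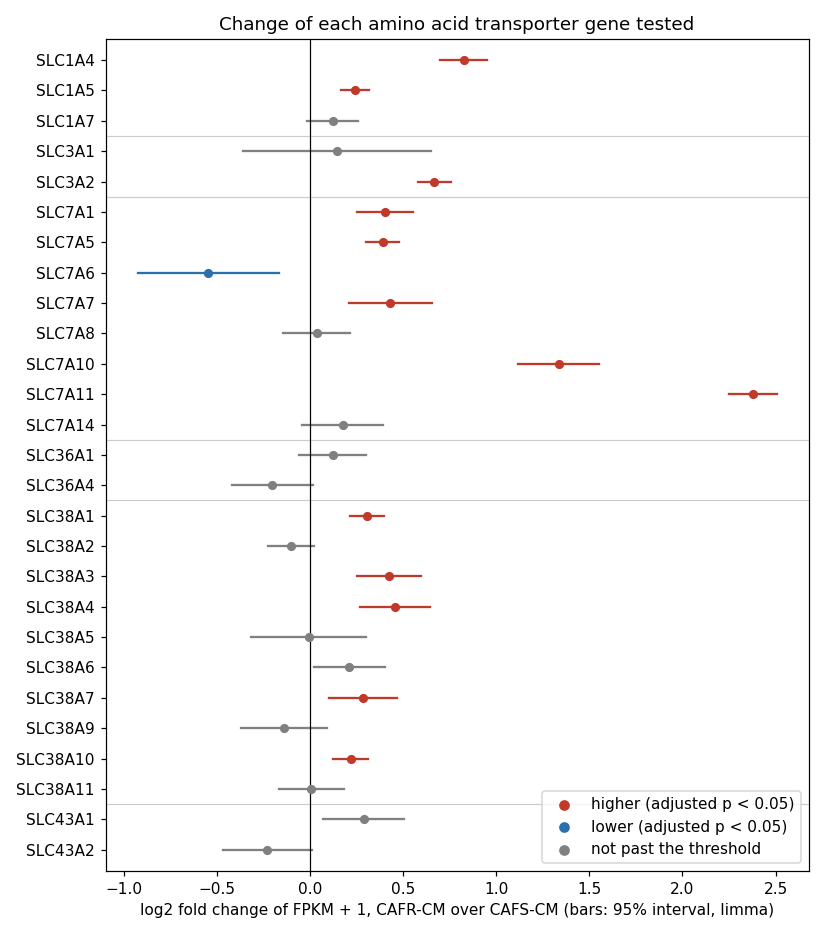
Log2 fold change of FPKM + 1 for each of the 27 transporter genes tested, CAFR-CM over CAFS-CM, grouped by family, with bars for the 95% interval from limma and color for the call at an adjusted p under 0.05. SLC7A11 at 2.38 and SLC7A10 at 1.33 lie farthest to the right, and SLC7A6 at -0.55 is the gene called lower.

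By family, 5 of 8 SLC7 genes tested, 5 of 10 SLC38 genes, 2 of 3 SLC1 genes and 1 of 2 SLC3 genes were higher. None of the 2 SLC36 genes or the 2 SLC43 genes tested was called by limma. At an unadjusted limma p under 0.05 the SLC36 count was still 0, and 1 SLC43 gene (SLC43A1) was higher. At that threshold 5456 of all 23608 genes tested were higher and 3607 lower, so counts among 2 genes say little. Summed over all 38 genes, the level was 1241.75 ± 30.6 FPKM after CAFR-CM and 1041.17 ± 10.6 FPKM after CAFS-CM (SD, n = 3 each), 1.19 times, and the 8 most abundant genes made up 93.6% of it after CAFR-CM and 93.1% after CAFS-CM. Of the 6 with a mean of at least 50 FPKM, 5 were higher and 0 lower, whereas 16.8% of the 1865 genes of that level were higher and 38.3% lower. Of the 9 tested with a mean under 1 FPKM, 3 were higher, and for all genes of that level the share was 7.65%. Between 1 and 10 FPKM, 2 of 7 were higher, near the 21.0% of all genes of that level. Between 10 and 50 FPKM, 3 of 5 were higher and 1 lower, where 18.3% of all genes were higher and 25.6% lower. By comparison, 50 of 240 other SLC genes tested were higher (20.8%) and 22 lower (9.17%), with a median log2 fold change of 0.06. The same fit gave all of these values, and no test set the families against the other SLC genes.

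**Figure D2:**
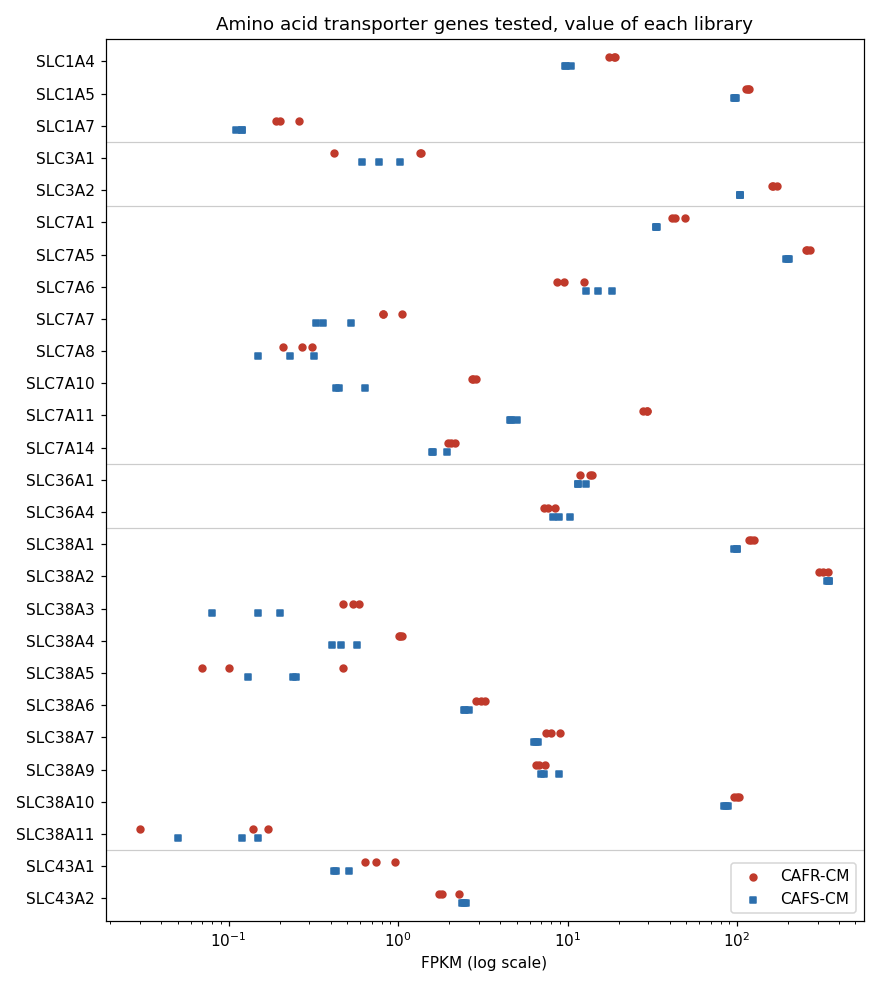
FPKM of each of the 27 transporter genes tested in every library, on a log axis, with circles for the 3 CAFR-CM libraries and squares for the 3 CAFS-CM libraries. Levels run from under 1 FPKM to over 300 FPKM, and the SLC7A11 points, at 27.88 to 29.58 FPKM after CAFR-CM and 4.59 to 5.03 FPKM after CAFS-CM, are far apart.

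Among the heavy chains, SLC3A2 (CD98 heavy chain), the partner of most SLC7 light chains, was at 160.58, 163.22 and 173.18 FPKM after CAFR-CM, against 103.59, 103.63 and 104.26 FPKM after CAFS-CM. Each CAFR-CM value exceeded every CAFS-CM value by at least 1.54 times. The means were 165.66 ± 6.64 and 103.83 ± 0.376 FPKM (SD, n = 3 each), a log2 fold change of 0.67 (standard error, SE, of 0.04, limma adjusted p = 8.38e-05). SLC3A2 lies on chromosome 11 (chr11:62856004-62888880, plus strand, GENCODE v44 on GRCh38). SLC3A1, the heavy chain of the kidney and gut cystine carrier, was at 0.42, 1.34 and 1.36 FPKM after CAFR-CM, against 0.77, 0.61 and 1.03 FPKM after CAFS-CM. Here the groups overlapped and the log2 fold change of 0.15 did not pass the test (limma adjusted p = 0.659, 95% interval -0.36 to 0.65).

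The largest change was that of SLC7A11, the light chain xCT of the cystine/glutamate exchanger, on chromosome 4 (chr4:138164097-138242349, minus strand). It was at 27.88, 29.58 and 29.26 FPKM after CAFR-CM, against 4.59, 4.64 and 5.03 FPKM after CAFS-CM. The means differed 6.08-fold, and the 9 ratios between single libraries were at least 5.54. The log2 fold change of 2.38 (SE 0.05) had an adjusted p of 2.09e-06 from limma and stayed between 2.29 and 2.58 under every alternative processing. The antisense row SLC7A11-AS1 held 0 to 0.22 FPKM, far below SLC7A11 itself.

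SLC7A10 (Asc-1), which exchanges small neutral amino acids such as glycine and serine, was at 2.72, 2.89 and 2.77 FPKM after CAFR-CM, against 0.45, 0.64 and 0.43 FPKM after CAFS-CM. Its level was low but the groups were well separated, with a 5.51-fold difference in means. The log2 fold change was 1.33 (SE 0.09, limma adjusted p = 1.62e-04), and because 1 FPKM is added before the log it understates the ratio of a gene this low. SLC7A10 and SLC7A9, the light chain of the kidney cystine carrier, are neighbours on chromosome 19, 339 kb apart, and SLC7A9 was at 0.02 to 0.08 FPKM in the 6 libraries.

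SLC7A5 (LAT1) was the most abundant light chain, at 256.19, 271.34 and 258.4 FPKM after CAFR-CM, against 202.37, 195.63 and 200.97 FPKM after CAFS-CM. All CAFR-CM values were above all CAFS-CM values, and the 1.31-fold difference in means gave a log2 fold change of 0.39 (SE 0.04, limma adjusted p = 5.84e-04). The row of its pseudogene SLC7A5P2, which resembles it in sequence, was also higher, at 25.57 to 27.87 FPKM after CAFR-CM and 18.78 to 20.09 FPKM after CAFS-CM (log2 fold change 0.44, limma adjusted p = 0.00113). SLC7A5P2 stood at 0.103 ± 0.00756 of SLC7A5 after CAFR-CM and at 0.0981 ± 0.00467 after CAFS-CM (SD, n = 3 each). Reads of such near copies may have been split between the rows, so the level of either is uncertain.

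SLC7A6 (y+LAT2), which exports arginine in exchange for glutamine and sodium, was at 12.59, 9.48 and 8.65 FPKM after CAFR-CM, against 18.21, 15.06 and 12.87 FPKM after CAFS-CM. The highest CAFR-CM value lay just under the lowest CAFS-CM value. The log2 fold change was -0.55 (SE 0.16, limma adjusted p = 0.0452). The call was lost without CAFR-CM replicate 2 or 3 (limma adjusted p = 0.117 each) and without CAFS-CM replicate 1 or 2 (0.127 and 0.111). SLC7A6OS, which overlaps SLC7A6 on the other strand, had a log2 fold change of 0.05 (limma adjusted p = 0.703), and whether the counting used strand is not stated in the sources used here.

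The closely related SLC7A7 (y+LAT1) was higher but low, at 0.897 ± 0.133 FPKM after CAFR-CM and 0.407 ± 0.108 FPKM after CAFS-CM (SD, n = 3 each). Its log2 fold change of 0.43 (limma adjusted p = 0.0163) lost the call without CAFS-CM replicate 1 or 3 (limma adjusted p = 0.0647 and 0.0637). Its neighbour on chromosome 14, SLC7A8 (LAT2), a further carrier of large neutral amino acids, was at 0.263 ± 0.0503 FPKM after CAFR-CM and 0.233 ± 0.0850 FPKM after CAFS-CM. Its log2 fold change of 0.04 did not pass the test (95% interval -0.15 to 0.22).

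Summed over the 7 light chain genes, the level was 305.1 ± 8.26 FPKM after CAFR-CM and 220.97 ± 4.76 FPKM after CAFS-CM (SD, n = 3 each), 1.38 times. SLC3A2 stood at 0.543 ± 0.0301 of this sum after CAFR-CM and at 0.470 ± 0.0106 after CAFS-CM, with no overlap. Within the sum, SLC7A11 made up 9.47% ± 0.244 after CAFR-CM and 2.15% ± 0.130 after CAFS-CM. The share of SLC7A6 was 3.36% ± 0.720 after CAFR-CM and 6.95% ± 1.10 after CAFS-CM. SLC7A5 stayed dominant, with 85.8% ± 0.533 after CAFR-CM and 90.4% ± 0.988 after CAFS-CM. These are shares of RNA levels per length and give no number of assembled carriers.

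**Figure D3:**
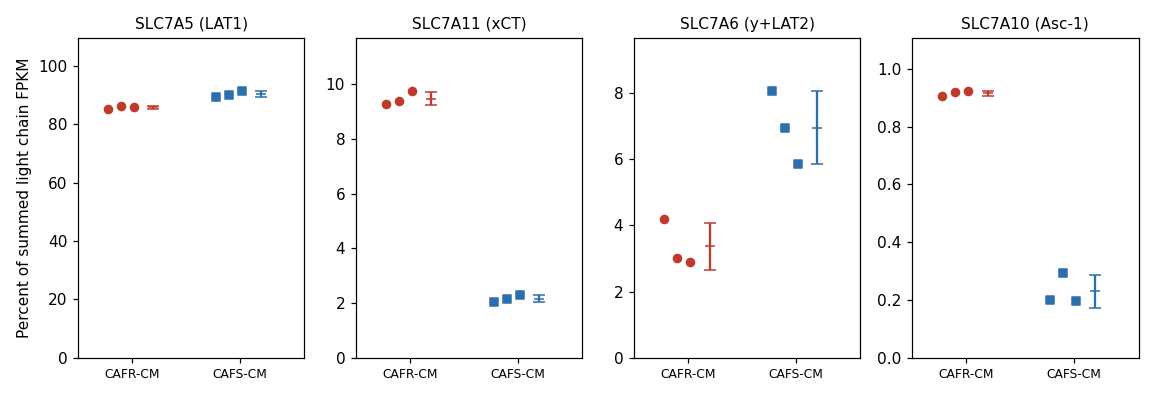
Percent of the summed light chain FPKM held by SLC7A5, SLC7A11, SLC7A6 and SLC7A10 in each library, with the mean and SD (n = 3) beside the points and an axis from 0 in every panel. SLC7A11 held 9.28 to 9.75% after CAFR-CM and 2.03 to 2.29% after CAFS-CM, while SLC7A6 held 2.88 to 4.19% after CAFR-CM and 5.85 to 8.05% after CAFS-CM.

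The cationic transporters of the SLC7 family work without a heavy chain. SLC7A1 (CAT1), the general importer of arginine and lysine, was at 41.55, 49.14 and 43.08 FPKM after CAFR-CM, against 33.63, 33.27 and 33.26 FPKM after CAFS-CM. The groups did not overlap, and the log2 fold change was 0.40 (SE 0.06, limma adjusted p = 0.00429). SLC7A14, a relative of these transporters, was at 2.06 ± 0.0954 FPKM after CAFR-CM and 1.71 ± 0.197 FPKM after CAFS-CM (SD, n = 3 each) and did not pass the test (log2 fold change 0.18, limma adjusted p = 0.21). SLC7A2, SLC7A3 and SLC7A4 were not tested, with at most 0.08 FPKM in any library.

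Both neutral exchangers of the SLC1 family were higher. SLC1A4 (ASCT1), which exchanges alanine, serine, cysteine and threonine, was at 17.56, 18.69 and 18.97 FPKM after CAFR-CM, against 9.66, 9.77 and 10.41 FPKM after CAFS-CM. The separation was 1.69 times or more between any 2 libraries, with a log2 fold change of 0.83 (SE 0.05, limma adjusted p = 1.23e-04). SLC1A5 (ASCT2), the main glutamine exchanger of many tumor cells, was at 115.7, 117.47 and 112.81 FPKM after CAFR-CM, against 98.39, 97.04 and 96.24 FPKM after CAFS-CM. Its groups were apart as well, by a smaller log2 fold change of 0.24 (SE 0.03, limma adjusted p = 0.00199). The size of this change depended on scaling. It was 0.14 with median-of-ratios scaling (limma adjusted p = 0.0217) and 0.35 with cyclic loess scaling (limma adjusted p = 3.77e-04). Of the 5 glutamate and aspartate transporters, SLC1A7 alone passed the filter (0.217 ± 0.0379 FPKM after CAFR-CM, 0.117 ± 0.00577 FPKM after CAFS-CM, log2 fold change 0.12, limma adjusted p = 0.167). SLC1A2, a glutamate transporter of astrocytes, was at 1.61 FPKM in CAFS-CM replicate 1 and at most 0.01 FPKM in the other 5 libraries, and SLC1A6 was listed at 0 throughout.

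The SLC38 family, mostly sodium-coupled carriers of glutamine, alanine and asparagine, held the most abundant member. SLC38A2 (SNAT2) was at 304.25, 344.95 and 321.76 FPKM after CAFR-CM, against 349.26, 341.71 and 349.28 FPKM after CAFS-CM. CAFR-CM replicate 2 lay within the CAFS-CM range and the other CAFR-CM libraries below it. The log2 fold change of -0.10 did not pass the test (limma adjusted p = 0.197, 95% interval -0.22 to 0.02). With median-of-ratios scaling it was -0.20 and passed (limma adjusted p = 0.0176), and with cyclic loess scaling it was 0.02. SLC38A2 made up 26.0% ± 1.01 of the summed level of all 38 transporter genes after CAFR-CM and 33.3% ± 0.157 after CAFS-CM (SD, n = 3 each).

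SLC38A1 (SNAT1), which lies 88.2 kb from SLC38A2 on chromosome 12 and carries many of the same substrates, was at 126.53, 118.12 and 120.84 FPKM after CAFR-CM, against 95.92, 99.79 and 99.33 FPKM after CAFS-CM. In contrast to its neighbour, every CAFR-CM value was above every CAFS-CM value (log2 fold change 0.31, SE 0.04, limma adjusted p = 0.00174). The third gene of this stretch, SLC38A4 (SNAT4), 392 kb from SLC38A2 on the other side, was at 1.06, 1.01 and 1.02 FPKM after CAFR-CM, against 0.46, 0.57 and 0.41 FPKM after CAFS-CM. It was higher at a low level, with a 2.15-fold difference in means (log2 fold change 0.46, limma adjusted p = 0.00652). Likewise SLC38A3 (SNAT3), a glutamine and histidine carrier of liver and brain, was at 0.533 ± 0.0603 FPKM after CAFR-CM and 0.143 ± 0.0603 FPKM after CAFS-CM (SD, n = 3 each), 3.72 times in linear terms (log2 fold change 0.42, limma adjusted p = 0.00642).

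SLC38A7, a glutamine carrier of the lysosomal membrane, was at 8.02, 9.06 and 7.48 FPKM after CAFR-CM, against 6.33, 6.54 and 6.69 FPKM after CAFS-CM. The groups did not overlap (log2 fold change 0.29, SE 0.08, limma adjusted p = 0.0349). This call was lost without CAFR-CM replicate 1 or 2 (limma adjusted p = 0.0647 and 0.0737) and without CAFS-CM replicate 1, 2 or 3 (0.107, 0.0952 and 0.0825). SLC38A10, a less studied member, was abundant, at 103.12, 100.44 and 96.29 FPKM after CAFR-CM, against 88.24, 83.4 and 85.6 FPKM after CAFS-CM. It was higher without overlap (log2 fold change 0.22, SE 0.04, limma adjusted p = 0.00786), though with median-of-ratios scaling the value was 0.12 and the call was lost (limma adjusted p = 0.101). SLC38A9, the lysosomal arginine sensor that signals to mTORC1, was at 6.87 ± 0.469 FPKM after CAFR-CM and 7.70 ± 1.03 FPKM after CAFS-CM (log2 fold change -0.14, 95% interval -0.37 to 0.09). SLC38A5, SLC38A6 and SLC38A11 were not called either, with log2 fold changes of -0.01, 0.21 and 0.01, and SLC38A8 was not tested. Summed, the family was at 565.5 ± 16.0 FPKM after CAFR-CM and 548.5 ± 4.02 FPKM after CAFS-CM, 1.03 times, in which the abundant SLC38A2 had the largest weight.

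**Figure D4:**
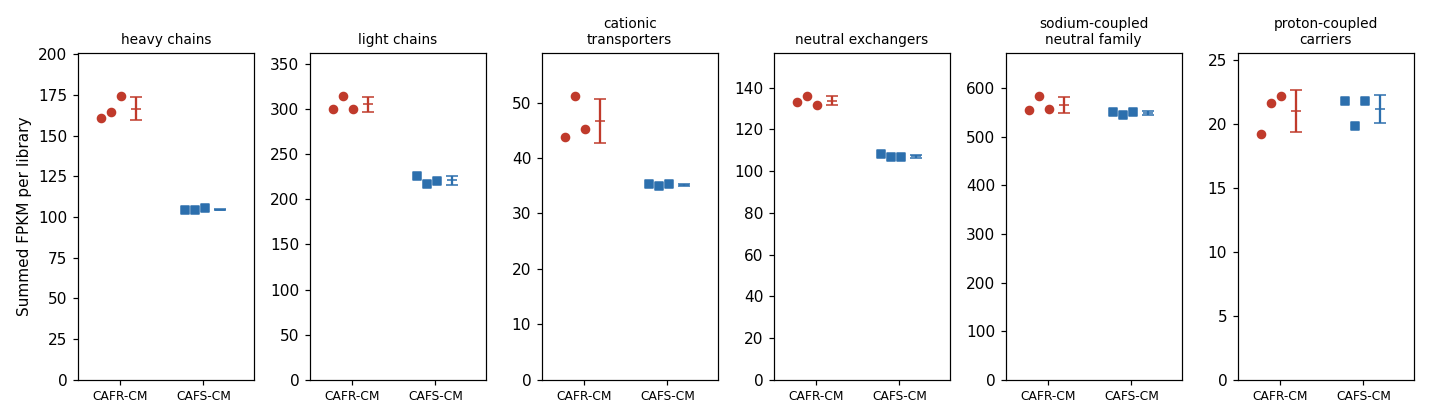
Summed FPKM per library of the heavy chains, light chains, cationic transporters, neutral exchangers, SLC38 family and proton-coupled carriers, each on an axis from 0, with the mean and SD (n = 3) beside the points. The heavy chain sums are 161.0 to 174.54 FPKM after CAFR-CM and 104.24 to 105.29 FPKM after CAFS-CM, while the proton-coupled sums are 19.18 to 22.2 FPKM after CAFR-CM and 19.87 to 21.82 FPKM after CAFS-CM.

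The SLC36 family holds proton-coupled carriers of small amino acids at the plasma and lysosomal membranes. SLC36A1 (PAT1) was at 13.2 ± 1.11 FPKM after CAFR-CM and 12.0 ± 0.757 FPKM after CAFS-CM (SD, n = 3 each), with a log2 fold change of 0.12 (95% interval -0.06 to 0.30). SLC36A4 (PAT4) was at 7.81 ± 0.616 FPKM after CAFR-CM and 9.15 ± 1.03 FPKM after CAFS-CM, with a log2 fold change of -0.20 (limma adjusted p = 0.156). With median-of-ratios scaling SLC36A4 passed the test as lower, at -0.29 (limma adjusted p = 0.0451). Of the SLC43 carriers of large neutral amino acids, SLC43A1 (LAT3) had a log2 fold change of 0.29 (limma adjusted p = 0.0589) and SLC43A2 (LAT4) of -0.23 (limma adjusted p = 0.145). The groups did not overlap for either gene, with opposite directions, and neither gene passed the test. SLC43A1 passed it without CAFR-CM replicate 1 (limma adjusted p = 0.0463), with only Entrez rows (0.0411) and without the mean-variance trend (0.0418). SLC43A2 passed it as lower with cyclic loess scaling, at -0.40 (limma adjusted p = 0.0259). SLC43A3, which is known as a purine nucleobase carrier, was not tested, nor was SLC36A2.

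To show what sequence the start regions of these genes hold, the window from 250 bases before to 50 bases after each annotated start was searched on both strands for TGATGNAAN, the core of the C/EBP-ATF response element (RefSeq sequences, GRCh38.p14). A gene with more than 1 annotated start has more than 1 window. A match was found in 6 of 30 transporter genes with a window (20%), beside 1215 of 27305 genes in all (4.45%), and in 6 of 52 transporter windows (11.5%), beside 1268 of 35116 in all (3.61%). Of the 11 genes called higher that have a window, 5 had a match, and of the 19 other genes with a window, 1. SLC1A2, SLC3A1, SLC7A2, SLC7A3, SLC7A4, SLC7A11, SLC38A3 and SLC43A3 had no window. A match is a description of the letters, not a bound site. The 6 matches are shown 5′ to 3′ along the gene with up to 10 bases on each side, with the 9 matching bases in capitals, which for SLC1A4 and SLC3A2 spell the motif on the opposite strand.
SLC3A2: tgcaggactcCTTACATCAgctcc
SLC7A1: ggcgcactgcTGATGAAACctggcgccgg
SLC1A4: gcggctcccgTTTGCATCAtctccagccg
SLC1A5: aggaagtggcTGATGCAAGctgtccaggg
SLC38A1: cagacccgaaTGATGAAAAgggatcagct
SLC1A3: aggaaatgacTGATGCAAAgcagggttaa

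With the annotated start of its window as position 0, the match began at position 36 in SLC3A2 (chr11:62881725-62881748, plus strand), 7 in SLC7A1 (chr13:29595663-29595691, minus strand) and -8 in SLC1A4 (chr2:64989381-64989409, plus strand). It began at position -97 in SLC1A5 (chr19:46784893-46784921, minus strand), -4 in SLC38A1 (chr12:46266502-46266530, minus strand) and -220 in SLC1A3 (chr5:36596358-36596386, plus strand). The bracketed coordinates are those of the stretch shown, with its flanking bases. In SLC3A2, SLC1A4, SLC1A5 and SLC38A1 the start used lay inside the GENCODE gene, not at its outer end. Those genes span chr11:62856004-62888880, chr2:64988477-65023865, chr19:46774883-46788594 and chr12:46183063-46270017. In SLC7A1 and SLC1A3 the start was at the outer end. Which starts Panc-1 cells use was not tested. SLC3A2, SLC7A1, SLC1A4, SLC1A5 and SLC38A1 were called higher, by log2 fold changes of 0.67, 0.40, 0.83, 0.24 and 0.31. SLC1A3, a glutamate transporter of glia, was not tested, with at most 0.06 FPKM. SLC7A5, which had a larger log2 fold change than SLC1A5 or SLC38A1, had no match in its windows.

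**Figure D5:**
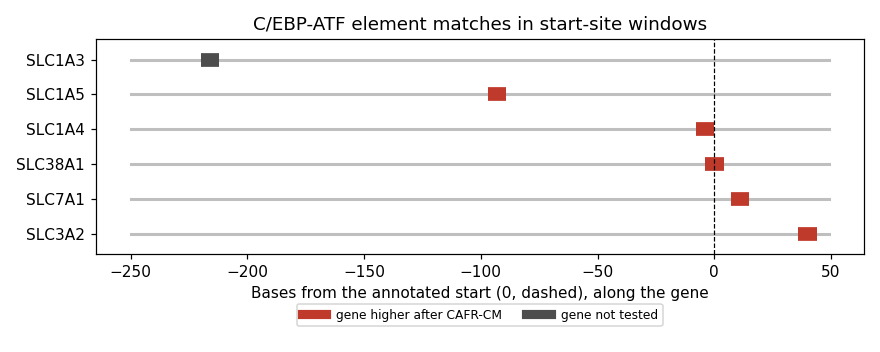
Position of each TGATGNAAN match (thick bar) in the window around an annotated start of 6 transporter genes, in bases along the gene with that start at 0. Red bars mark the 5 genes called higher after CAFR-CM, and the dark bar marks SLC1A3, which was not tested.

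Genes that work with these transporters were taken from lists and read in the same fit. The lists were chosen with earlier results of these data known, so their counts are descriptions and no independent evidence. Of 15 integrated stress response regulators, 8 were higher and 2 lower (1 lower without CAFR-CM replicate 2 or without any single CAFS-CM library), with a median log2 fold change of 0.23. That is 53.3% higher and 13.3% lower, beside 15.1% and 11.1% of all genes tested, so the share lower was near the background. ATF4 itself was at 212.5 ± 6.90 FPKM after CAFR-CM and 120.9 ± 1.35 FPKM after CAFS-CM (SD, n = 3 each), a log2 fold change of 0.81 (limma adjusted p = 3.05e-05). CHAC1, which encodes an enzyme that degrades glutathione, had a log2 fold change of 2.35 (limma adjusted p = 5.48e-06). The 2 lower were EIF2AK1, a kinase that phosphorylates eIF2 alpha, and EIF2S1, which encodes eIF2 alpha, by -0.23 and -0.21.

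Of 25 genes through which mTORC1 senses amino acids, 5 were higher and 2 lower, with a median log2 fold change of 0.02. These shares of 20% and 8% lay near the 15.1% and 11.1% of all genes tested. SESN2, which encodes the leucine sensor Sestrin2, was at 12.3 ± 0.665 FPKM after CAFR-CM and 4.94 ± 0.150 FPKM after CAFS-CM (log2 fold change 1.16, limma adjusted p = 6.37e-05). RRAGD, a Rag GTPase gene, had a log2 fold change of 0.73, and CASTOR2, a relative of the arginine sensor gene CASTOR1, one of -0.22. CASTOR1 itself had one of 0.20 and was not called (limma adjusted p = 0.108). These counts depended on single libraries. Without CAFS-CM replicate 1 or 2, 3 of the genes were higher and 0 lower, without CAFS-CM replicate 3 none was lower, and without any 1 CAFR-CM library 1 was lower.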

How the data were processed

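Total RNA of 6 Panc-1 samples was depleted of ribosomal RNA and made into strand-marked (dUTP) libraries. SOAPnuke was used by the authors to filter reads, HISAT2 (version 2.0.4) to align them on GRCh38.p13 and RSEM (version 1.2.12) to estimate gene levels. The authors' notes also name Bowtie2 (version 2.2.5), and the authors tested genes with DESeq2 (version 1.4.5). The deposited values are FPKM of each gene in each sample, with 2 decimals. Which annotation was used is not stated in the sources used here. FPKM depend on transcript length and library total, so a few abundant RNAs can shift other values. The 55272 circular RNA rows of the 97767 hold no value for these samples.

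In R (version 4.3.3), limma (version 3.58.1) was run on log2(FPKM + 1) with its trend option, for the 23608 rows above 0.1 FPKM in at least 3 samples, two-sided, with Benjamini-Hochberg adjustment over all rows tested. The fit was tested on simulated data. Values per sample were given for genes called with a mean of at least 1 FPKM in a group, for both heavy chains and for the 5 most abundant genes. Genes of the related lists were named as examples after their values were seen, and the members and lists themselves were chosen with earlier results of these data known. Alternatives were a pseudocount of 0.1, no filter, a mean of at least 1 FPKM, rows with an Entrez identifier, 3 other scalings, a replicate block, no trend, a fold limit and leaving out each sample. Gene positions are from GENCODE v44 and start windows from RefSeq.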

Additional observations from a re-analysis of the deposited data

How the results depend on the processing

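The count of transporter genes higher after CAFR-CM (13) was 10 to 15 over the 15 other fits, and 11 to 13 when 1 library was left out. The 10 came with a mean of at least 1 FPKM, where 18 transporter genes were tested rather than 27. With the fold limit, 2 were higher and 0 lower. The count lower (1) was 0 without the filter, 3 with median-of-ratios scaling, 0 without the mean-variance trend and 0 to 1 when 1 library was left out; the cause was not tested. Of the 14 calls, 10 held in each of the 15 other fits in which the gene was tested, the fold limit aside. The calls of SLC7A6, SLC7A7, SLC38A7 and SLC38A10 were lost in 7, 3, 10 and 1 of them. Over all genes, median-of-ratios scaling gave 2690 genes higher and 3979 lower (11.3% and 16.7%), against 3560 and 2626 (15.1% and 11.1%). Its library factors were 1.023 to 1.051 for CAFR-CM and 0.963 to 0.981 for CAFS-CM. Without a CAFS-CM library, 2264 to 2339 were higher. SLC38 genes higher numbered 3 of 10 tested with median-of-ratios scaling, against 5 of 10. With a mean of at least 1 FPKM they numbered 3 of 6, as SLC38A3 and SLC38A4 were then not tested. Values near 0 changed sign. SLC7A8 was at -0.051 with cyclic loess and at -0.013 to 0.086 when 1 library was left out, SLC38A2 at 0.020 with cyclic loess, and SLC38A11 at -0.0014 with median-of-ratios scaling, -0.064 with cyclic loess and -0.030 to 0.063 when 1 library was left out. SLC38A5 was at -0.15 to 0.077 when 1 library was left out. Deviations of same-numbered libraries had correlations of 0.0198, -0.0285 and 0.0621, within the -0.0871 to 0.0666 of differently numbered ones. The labels do not say how the numbers were assigned, and with 3 libraries a group these correlations cannot show whether they pair. With the replicate block 12 transporter genes were higher and 1 lower. SLC38A7 was then not called (limma adjusted p = 0.064), and SLC7A6 was called lower (limma adjusted p = 0.00482). With 3 samples a group and FPKM only, differences within the spread of low genes were not detectable, and depth could not be used.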

Other observations

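Amino acid carriers outside the 6 families were read in the same fit. Of 31 such genes listed, 20 passed the filter, 6 were higher after CAFR-CM and 1 lower (2 lower without CAFR-CM replicate 1), with a median log2 fold change of 0.07. These are 30% higher and 5% lower, beside 15.1% and 11.1% of all genes tested, and beside 20.8% and 9.17% of the other SLC genes, some of which are also in this list. SLC6A6, the taurine transporter gene, was at 127.2 ± 4.75 FPKM after CAFR-CM and 78.0 ± 3.27 FPKM after CAFS-CM (SD, n = 3 each), a log2 fold change of 0.70 (limma adjusted p = 1.29e-04). SLC6A9, the glycine transporter gene, had a log2 fold change of 0.98 (limma adjusted p = 5.58e-04), and MFSD12, which encodes a cysteine importer of lysosomes and melanosomes, one of 0.29 (limma adjusted p = 0.00845). SLC25A44, which encodes the mitochondrial carrier of branched-chain amino acids, was lower, at 18.7 ± 0.762 FPKM after CAFR-CM and 23.7 ± 0.673 FPKM after CAFS-CM (log2 fold change -0.33, limma adjusted p = 0.00284).

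TMEM104, which RefSeq also lists under the name SLC38A12 and which the symbol rule does not take, was at 18.46, 18.81 and 17.08 FPKM after CAFR-CM, against 26.5, 26.18 and 25.35 FPKM after CAFS-CM. The groups did not overlap, and it was lower by a log2 fold change of -0.50 (SE 0.05, limma adjusted p = 6.47e-04). No SLC38 gene among the members was called lower in the same fit.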
